A study of Mus musculus with 4 samples.

Results

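Open chromatin far from genes was examined in 4 ATAC-seq libraries of mouse T-helper 17 (Th17) primary cells. The gene-distant regions described here are stretches of accessible DNA that hold a peak in every replicate, lie outside all protein-coding gene bodies of the GENCODE M21 annotation, and have a midpoint over 100 kb from every protein-coding transcription start site (TSS). They were found by merging overlapping peaks of the 4 lists on chromosomes 1 to 19 and X, and position alone chose them. There were 4357 such regions among 68680 regions present in all 4 lists, or 6.34%. The other regions were 19535 nearer intergenic regions (1 to 100 kb from a TSS and outside gene bodies), 29374 regions inside protein-coding gene bodies, and 15414 regions within 1 kb of a TSS.

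ATAC-seq uses a transposase that inserts adapters where DNA is not wrapped in nucleosomes, so a peak marks a site open to proteins. The cells were from strain C57BL/6NJ and formed 1 group of 4 biological replicates with no second condition; sex was not collected and age is unknown, per the labels. The labels give 1 donor for all 4 replicates, so the spread between them may not include differences between animals. The cells were differentiated in culture, and the 4 lists held 83886, 85103, 85272 and 84117 peaks on these chromosomes in replicates 1 to 4.

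Distal enhancers are DNA elements that bind transcription factors and act on promoters by folding of the chromatin fibre, in some cases over long distances. Long intervals without protein-coding genes often flank genes for transcription factors and signalling proteins, and some hold clusters of enhancers used in one cell lineage. AP-1 factors (Fos, Jun and Batf proteins) and RUNX and ETS factors bind many T-cell enhancers, while CTCF marks boundaries and anchors of chromatin loops.

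The label of the cells was checked at promoters. A peak lay within 1 kb of a TSS in all 4 replicates for 10 of 10 T-cell identity genes (among them Cd3e, Cd4 and Lck) and for 13 of 14 genes of the Th17 programme (among them Il17a, Il17f, Il23r, Ccr6 and Rora), Il22 being the exception. Over all 21728 protein-coding genes the share was 64.7%. A promoter peak in all 4 replicates was found for 3 of 8 B-cell genes (Pax5, Cr2 and Fcer2a), 3 of 8 myeloid genes (Cd14, Mpo and Cd68), 3 of 8 erythroid genes, 4 of 8 muscle genes (Actn2, Ckm, Mylpf and Tnnt3) and 0 of 8 hepatocyte genes. An open promoter does not show that a gene is expressed, and the part of other cell types in the gene-distant regions was not tested.

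The DNA at the summit of some gene-distant regions is shown first, because the results turn on the binding-site strings it holds. Each sequence is 151 bases of the plus strand of mm10 (GRCm38, RefSeq), centred on the summit in replicate 1, and capitals mark the string named. The 5 regions below are those of best mean signal rank with the named string within 50 bp of the summit in all 4 replicates. The CTCF region (chrX:94865620-94865770) lies 141 kb from Zxdb, the AP-1 region (chr5:3152169-3152319) 189 kb from Cdk6, the RUNX region (chr13:110960313-110960463) 295 kb from Actbl2, the ETS region (chr10:124138586-124138736) 874 kb from Fam19a2, and the AP-1/IRF composite region (chr3:36349214-36349364) 103 kb from Anxa5.
CTCF: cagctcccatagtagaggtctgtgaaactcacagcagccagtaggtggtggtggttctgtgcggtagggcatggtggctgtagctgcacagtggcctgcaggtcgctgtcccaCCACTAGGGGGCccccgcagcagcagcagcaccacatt
AP-1: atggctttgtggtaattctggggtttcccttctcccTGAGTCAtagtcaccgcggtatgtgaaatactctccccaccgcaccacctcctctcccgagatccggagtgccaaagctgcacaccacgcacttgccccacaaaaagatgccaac
RUNX: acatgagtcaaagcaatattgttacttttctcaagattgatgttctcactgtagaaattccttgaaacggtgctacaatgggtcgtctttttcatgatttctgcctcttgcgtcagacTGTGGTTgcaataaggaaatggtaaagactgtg
ETS: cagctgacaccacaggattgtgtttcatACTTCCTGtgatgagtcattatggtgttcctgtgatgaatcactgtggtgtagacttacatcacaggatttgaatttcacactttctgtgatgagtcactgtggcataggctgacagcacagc
AP-1/IRF composite: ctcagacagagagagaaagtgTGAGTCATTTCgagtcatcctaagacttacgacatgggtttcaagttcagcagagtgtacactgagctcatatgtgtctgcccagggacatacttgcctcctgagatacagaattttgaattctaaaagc
The farthest regions shown, to set beside these, lie 1650 kb from Cntnap5b (chr1:101902563-101902713) and 1299 kb from Nxph1 (chr6:10248043-10248193) and hold none of these strings. Their summits ranged over 395 and 476 bp between replicates, and the windows are centred on replicate 1 only. They do not stand for all of the farthest regions. Among the 5 farthest, the AP-1 string was at the summit in 3 replicates 2076 kb from Pik3c3. It was there in all 4 replicates 1254 kb from Zeb2 and 1248 kb from Lrfn5.
Cntnap5b: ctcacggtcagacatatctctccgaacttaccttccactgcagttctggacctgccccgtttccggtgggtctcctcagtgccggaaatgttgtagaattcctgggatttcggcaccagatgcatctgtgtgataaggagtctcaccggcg
Nxph1: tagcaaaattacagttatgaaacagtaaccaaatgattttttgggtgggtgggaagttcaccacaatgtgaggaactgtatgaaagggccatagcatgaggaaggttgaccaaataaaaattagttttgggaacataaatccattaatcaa
In the 5 strong regions the matches lie 43.5 bp (CTCF) and 46 bp (RUNX) to the right of the summit and 36 bp (AP-1), 43.5 bp (ETS) and 49 bp (composite) to its left. The ETS region also holds the AP-1 string near its summit in all 4 replicates.

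A second set shows the gene-distant region of best mean rank beside 4 genes that matter in T cells: Myc, a growth regulator; Gata3, a T-cell lineage factor; Foxo1, a forkhead factor of resting T cells; and Ahr, the aryl hydrocarbon receptor, which Th17 cells use. These 4 were chosen after their values were seen. The Myc region (chr15:62763397-62763547) lies 776 kb from its TSS, the Gata3 region (chr2:8965057-8965207) 908 kb, the Foxo1 region (chr3:52516148-52516298) 248 kb and the Ahr region (chr12:35641101-35641251) 106 kb. Capitals mark any AP-1, CTCF, RUNX or ETS string.
Myc: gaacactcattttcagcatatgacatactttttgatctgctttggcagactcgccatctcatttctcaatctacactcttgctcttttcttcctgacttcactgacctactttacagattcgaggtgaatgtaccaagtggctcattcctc
Gata3: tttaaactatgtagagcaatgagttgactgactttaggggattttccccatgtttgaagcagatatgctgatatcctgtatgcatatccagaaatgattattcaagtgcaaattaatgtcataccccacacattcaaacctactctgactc
Foxo1: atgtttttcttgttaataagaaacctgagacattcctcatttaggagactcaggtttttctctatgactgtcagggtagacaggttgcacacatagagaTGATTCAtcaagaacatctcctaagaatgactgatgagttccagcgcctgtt
Ahr: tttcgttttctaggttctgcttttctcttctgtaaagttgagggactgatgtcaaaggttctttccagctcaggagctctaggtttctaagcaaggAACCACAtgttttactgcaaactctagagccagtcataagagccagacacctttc
None of the 4 strings occurs in the windows beside Myc and Gata3. The Foxo1 window holds an AP-1 string and the Ahr window a RUNX string on the other strand. Within 50 bp of the summit, the AP-1 string beside Foxo1 was found in 3 replicates and the RUNX string beside Ahr in 4. The Gata3 region held another of the strings searched, that of NF-kB, within 50 bp of its summit in all 4 replicates. The Myc region had a signal of 19.97, 18.4, 17.3 and 18.6 in replicates 1 to 4, and the Gata3 region 18.4, 19.3, 18.6 and 19.3. The Foxo1 region had 19.3, 19.4, 17.3 and 18.5, and the Ahr region 16.6, 15.9, 15.1 and 15.9. Signal is the value that the authors' peak file gives each peak, and no source used here gives its scale. All 4 regions ranked above 96% of all shared regions on the mean of the replicates.

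Open regions were thin far from genes. The sequence that meets the position rule covers 774 Mb, or 30.3% of the sequenced bases of these chromosomes, and held 5.63 shared regions per Mb. Nearer intergenic sequence held 26.1 per Mb, and all sequence outside the gene-distant territory held 36.04 per Mb. Counted over peaks in each replicate, the density in the gene-distant territory was 0.156, 0.158, 0.158 and 0.157 of that in the rest of the genome in replicates 1 to 4 (mean 0.157 ± 0.000835, SD, n = 4). The ratio was below 1 in 4 of 4 replicates (p = 0.125, exact two-sided sign-flip permutation test). With 4 replicates this test cannot give a p below 0.125, so it cannot reach 0.05 for any comparison here, and the size, the SD and the number of replicates with the same direction carry the comparisons. The p-values concern these 4 libraries only.

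The gene-distant regions recurred between replicates about as often as other intergenic ones. A peak from all 4 lists was found in 66.8% of the 6527 merged gene-distant regions, against 65.98% of the 29608 merged nearer intergenic regions and 68.0% of the 100991 merged regions of all kinds. The share of a replicate's peaks that lay in such regions was 82.8%, 81.3%, 80.5% and 82.2% in gene-distant regions and 82.8%, 81.9%, 79.5% and 80.9% in nearer ones. The difference of 0.448 ± 0.852 percentage points (SD, n = 4; higher in 3 of 4 replicates) was smaller than its spread. Summits of a gene-distant region fell within a median of 44 bp of each other over the 4 replicates, against 42 bp in nearer intergenic regions. Spearman's rho of the signal between 2 replicates lay between 0.930 and 0.958 over the 4357 gene-distant regions, with the highest values inside the library tags KS134 (replicates 1 and 2) and KS136 (replicates 3 and 4) that the peak names carry, and it lay between 0.941 and 0.960 over nearer ones.

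**Figure D1:**
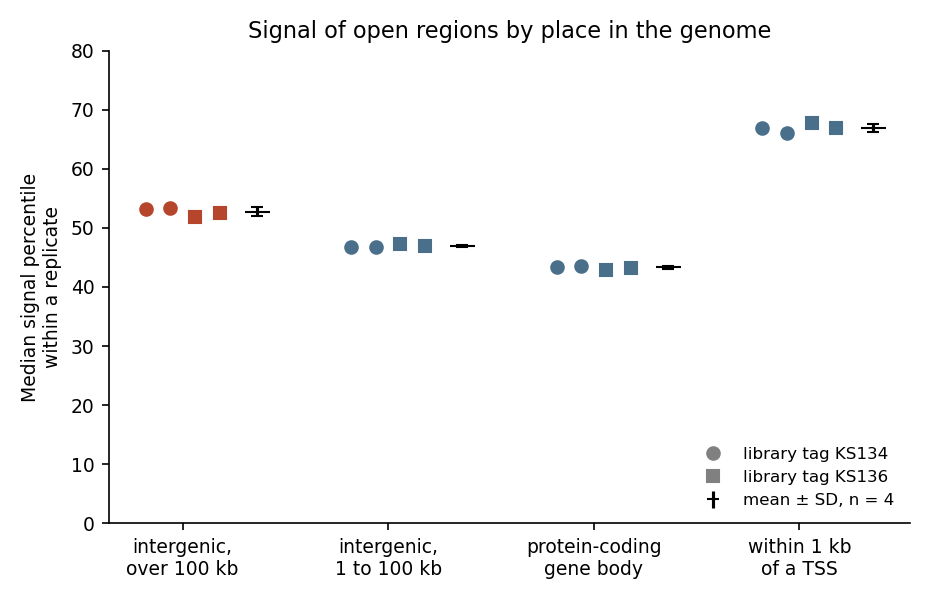
Median signal percentile of shared open regions within each replicate (vertical axis, percent) for 4 places in the genome; each point is a replicate, its shape the library tag, and the bar is the mean ± SD of 4 replicates. Gene-distant regions averaged 52.7, nearer intergenic regions 46.9, regions in gene bodies 43.3 and regions within 1 kb of a TSS 66.9.

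The regions that were open far from genes were not the weakest ones. To compare replicates, the signal of each shared region was turned into its percentile among all shared regions of the same replicate. The median percentile of gene-distant regions was 53.2, 53.4, 51.8 and 52.5 in replicates 1 to 4, against 46.7, 46.8, 47.2 and 47.0 in nearer intergenic regions. The groups did not overlap, and the difference was 5.77 ± 0.967 percentile points (SD, n = 4; higher in 4 of 4 replicates). It was 6.51 and 6.57 in the replicates with tag KS134 and 4.54 and 5.47 in those with KS136. Regions in gene bodies averaged 43.3 ± 0.303 and promoters 66.9 ± 0.698 (SD, n = 4 each).

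The difference depended on how far the comparator lay from a TSS. Nearer intergenic regions at 1 to 10 kb from a TSS (5338 regions) had a median percentile of 38.0 ± 0.196, those at 10 to 25 kb 49.2 ± 0.391, those at 25 to 50 kb 50.02 ± 0.411 and those at 50 to 100 kb (3573 regions) 52.1 ± 0.443 (SD, n = 4 each). Against the last of these alone, a comparison chosen after the data were seen, gene-distant regions were higher by 0.610 ± 0.803 percentile points, which is within the spread. By the −log10 q of the peaks both kinds of intergenic region differed little as well: the median percentile was 45.6, 45.7, 45.2 and 45.5 in gene-distant regions and 44.8, 44.8, 44.9 and 45.01 in nearer ones.

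Strong regions were found far from genes in every replicate. Of the 1000 regions with the highest signal, 108, 114, 113 and 113 were gene-distant in replicates 1 to 4, or 10.8% to 11.4%, where gene-distant regions make up 6.34% of all shared regions. The strongest decile of all regions held 12.3%, 13.0%, 12.3% and 13.0% of the gene-distant regions, against 8.47%, 8.66%, 8.49% and 8.59% of the nearer intergenic ones. Peaks of gene-distant regions were narrower, with a median width of 618, 620, 658 and 640 bp, against 639, 640, 691 and 677 bp in nearer intergenic regions (difference −27.75 ± 8.54 bp, SD, n = 4; lower in 4 of 4 replicates).

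The 10 gene-distant regions with the best mean rank stood at mean ranks 4.00 to 72.5 of all 68680, and several lie in unusual sequence. The first, on chromosome 3, 110 kb from Gm8797, had a signal of 33.6, 34.6, 32.7 and 33.3, and the 31-base words at its summit occur 8 times in the genome (median of 5 words). The second, 179 kb from Arhgef26, had 31.1, 32.1, 29.7 and 29.7 in single-copy sequence, and the third, 697 kb from Neto1, had 27.1, 27.3, 26.8 and 28.4. The fourth, 104 kb from Esp38, overlaps annotated ribosomal RNA and long noncoding RNA genes (among them AY036118 and Gm26917), has 2 copies of its summit words and had 26.2, 25.8, 23.9 and 24.9. The others lay nearest to Gm21738, Cdk6, Actbl2, Gm6657, Adam6a (a region that overlaps the immunoglobulin variable segment Ighv14-2) and Zfp960. Over all 4357 regions, 17 had multi-copy summits in all 4 replicates and 0 held 31-base words of the mitochondrial genome. The 3 weakest lay nearest to Klf14, Rplp1 and Satb1, with mean signals of 1.91 ± 0.0906, 1.88 ± 0.118 and 1.76 ± 0.0280 (SD, n = 4).

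Just inside the 100 kb limit stood a region 100033 bp from Zfp706 with a signal of 7.82, 8.15, 5.47 and 7.56, and just outside it one beside Zfp217 with 17.0, 16.6, 14.6 and 15.6. The next ones inside lay nearest to Irx4 (mean 5.46) and Ttc29 (4.96), and the next ones outside nearest to Ofcc1 (4.92) and Tbx4 (9.01). Over the 426 regions at 100 to 110 kb the median percentile was 54.3 ± 0.372, and over the 449 at 90 to 100 kb it was 52.2 ± 0.859 (SD, n = 4). The AP-1 share was 31.2% inside and 29.6% outside, and the CTCF share was 2.64% inside and 3.40% outside. These values describe the limit and were not tested.

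The strings at the summits differed between gene-distant and nearer regions. A region was counted when a string of letters occurred, on either strand, within 50 bp of the summit of its strongest peak. AP-1 (TGANTCA) was the most frequent of the 18 strings searched. It was present in 31.7%, 31.4%, 31.2% and 31.3% of gene-distant regions in replicates 1 to 4, against 25.3%, 25.8%, 25.8% and 25.7% of nearer intergenic regions. The groups did not overlap, and the difference was 5.74 ± 0.389 percentage points (SD, n = 4; higher in 4 of 4 replicates). Regions in gene bodies had 27.2% ± 0.150, promoters 6.78% ± 0.153 and all shared regions together 22.4% ± 0.108. At points 200 bp from the summit the share was 4.85% in gene-distant regions and 3.91% in nearer ones. The share at the summit was 6.48 ± 0.194 times that in gene-distant regions and 6.56 ± 0.121 times that in nearer ones (SD, n = 4). The same letters in reversed order occurred at 6.07% and 5.29% of the summits. Against regions 50 to 100 kb from a TSS alone the AP-1 difference was 2.49 ± 0.553 percentage points, higher in 4 of 4 replicates.

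**Figure D2:**
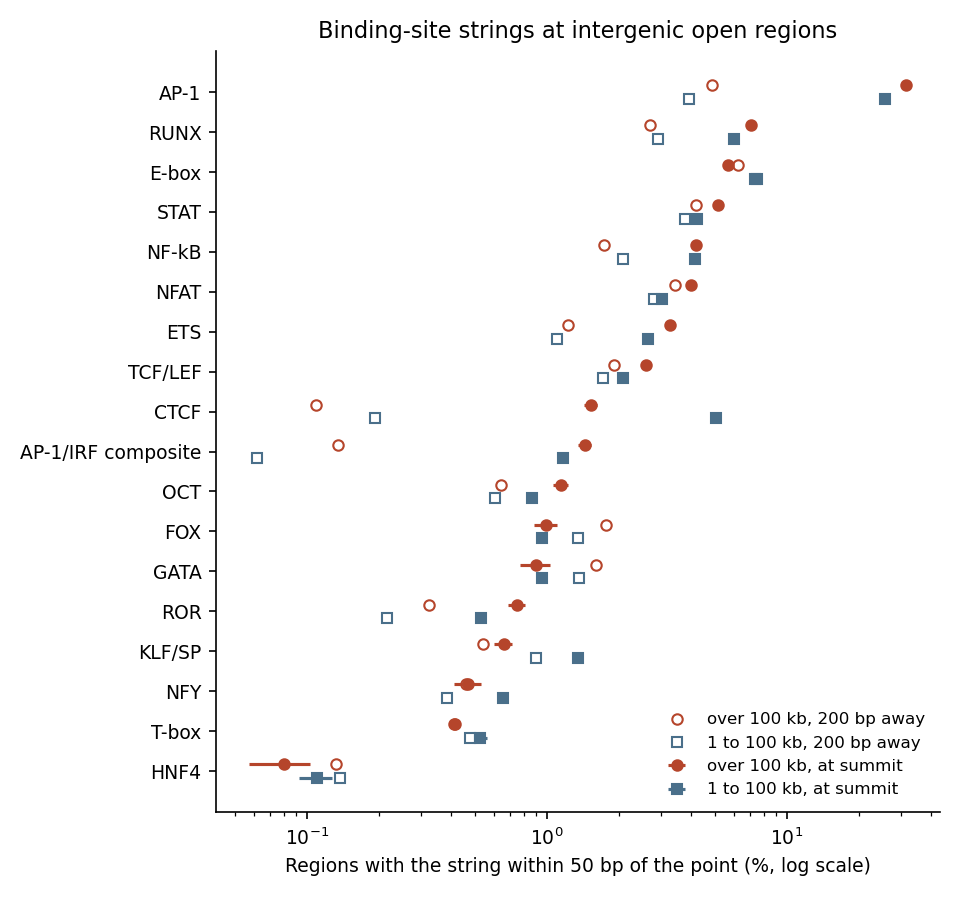
Share of intergenic open regions that hold each of 18 strings (horizontal axis, percent, log scale) in regions over 100 kb from a TSS (circles) and 1 to 100 kb from one (squares); filled symbols are at the summit with the SD of 4 replicates, open symbols 200 bp away. AP-1 is the most frequent string, and CTCF is the one whose share differs most in proportion (1.52% against 5.07%).

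CTCF strings were less frequent far from genes than in nearer intergenic regions. The CTCF string was present in 1.51%, 1.54%, 1.40% and 1.63% of gene-distant regions (66, 67, 61 and 71 regions), against 4.98%, 5.07%, 5.12% and 5.10% of nearer intergenic regions (973, 991, 1000 and 997 regions). The gene-distant share was 0.300 ± 0.0192 of the nearer one (SD, n = 4; lower in 4 of 4 replicates). Promoters had 1.41% ± 0.0112, close to the gene-distant share, regions in gene bodies 3.39% ± 0.00735 and all shared regions together 3.31% ± 0.0191. Against regions at 50 to 100 kb alone the difference was −1.68 ± 0.207 percentage points, lower in 4 of 4 replicates. The letters of the string in reversed order were at 0% of gene-distant summits. A match to a fixed string is not a bound site, and sites that differ from the string in a letter were not counted.

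The summits far from genes were also poorer in G and C. The GC content of the bases within 100 bp of the summit averaged 45.5% in each of the 4 replicates in gene-distant regions, against 48.5%, 48.4%, 48.5% and 48.5% in nearer intergenic regions (difference −2.98 ± 0.0156 percentage points, SD, n = 4). Base composition moves with the strings, so the shares were also compared within 5 classes of GC content, an analysis chosen after the data were seen. The AP-1 share was higher in gene-distant regions in all 5 classes; at 45% to 50% GC it was 33.2% ± 0.651, against 28.4% ± 0.332 in nearer regions. The CTCF share was lower in all 5 classes; at 50% to 55% GC it was 2.59% ± 0.473, against 7.41% ± 0.178. Averaged over the classes, the AP-1 difference was 3.68 ± 0.449 and the CTCF difference −2.70 ± 0.118 percentage points (SD, n = 4; 4 of 4 replicates in the same direction for each).

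Strings of other factors showed smaller differences. RUNX (TGTGGTT) was present in 6.89%, 6.93%, 7.32% and 7.18% of gene-distant regions, against 6.07%, 6.03%, 5.98% and 5.94% of nearer intergenic ones, and in 5.43% of all shared regions. ETS (CAGGAAGT) was present in 3.28%, 3.17%, 3.37% and 3.24%, against 2.62%, 2.69%, 2.68% and 2.60%, and in 2.61% of all shared regions. Neither pair of groups overlapped. Against regions at 50 to 100 kb alone these differences were within the spread (−0.0283 ± 0.448 and 0.0953 ± 0.0960 percentage points), and the RUNX share was higher in gene-distant regions in 3 of the 5 GC classes and the ETS share in 5 of 5.

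Several other strings were more frequent in gene-distant than in nearer regions in 4 of 4 replicates. The AP-1/IRF composite, a site of Batf with Irf4 whose letters contain an AP-1 match, was present in 1.44%, against 1.16% in nearer regions. NFAT (TGGAAAA) had 3.99% against 3.00%, STAT (TTCNNNGAA) 5.17% against 4.23%, TCF/LEF (CTTTGAT) 2.58% against 2.07%, ROR 0.752% against 0.532% and OCT (ATGCAAAT) 1.14% against 0.865%. NF-kB did not differ beyond the spread, with 4.18% against 4.14% (difference 0.0429 ± 0.143 percentage points). The letters of TCF/LEF in reversed order were as frequent, at 2.56% of gene-distant and 1.80% of nearer summits. Points 200 bp away showed the same direction, so these differences are not confined to the summit. There the shares in gene-distant and nearer regions were 0.135% and 0.0621% for the composite and 0.321% and 0.215% for ROR. They were 3.41% and 2.78% for NFAT, 4.19% and 3.76% for STAT, 1.91% and 1.71% for TCF/LEF and 0.643% and 0.605% for OCT. In proportion, the NFAT and STAT shares at the summit stood least above those at these points. They were 1.17 ± 0.0440 and 1.24 ± 0.0969 times as high in gene-distant regions (SD, n = 4).

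Other strings were less frequent far from genes in 4 of 4 replicates. KLF/SP (GGGCGGGG), typical of promoters, had 0.660% in gene-distant regions against 1.35% in nearer ones, E-box (CAGGTG) 5.68% against 7.33%, NFY (CCAATCAG) 0.471% against 0.657%, and T-box (AGGTGTGA) 0.413% against 0.529%. The E-box and T-box strings can overlap. At points 200 bp away E-box stood at 6.25% in gene-distant and 7.54% in nearer regions, above its share at the summit in both. HNF4 (CAAAGTCCA), a string of a liver factor, had 0.0803% against 0.110%. That was 4, 2, 4 and 4 gene-distant regions in replicates 1 to 4, too few to read as a difference. In reversed order, the letters of KLF/SP were at 0.631% of gene-distant summits and those of T-box, NFY and HNF4 at 0.706%, 0.522% and 0.230%. At gene-distant summits these strings were thus hardly more frequent, or less frequent, than their reversed letters. At nearer summits the reversed letters stood at 1.11% for KLF/SP, 0.717% for T-box, 0.303% for NFY and 0.205% for HNF4. There KLF/SP and NFY were more frequent than their reversed letters, and T-box and HNF4 were less frequent.

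The strings of forkhead and Gata factors did not differ the same way in every replicate. The forkhead string (TGTTTAC) stood at 0.993% of gene-distant and 0.956% of nearer summits, against 1.76% and 1.35% at points 200 bp away. The string of Gata3 and its relatives, with the letters AGATAAG, stood at 0.901% of gene-distant and 0.9496% of nearer summits, against 1.60% and 1.36% at points 200 bp away.

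**Figure D3:**
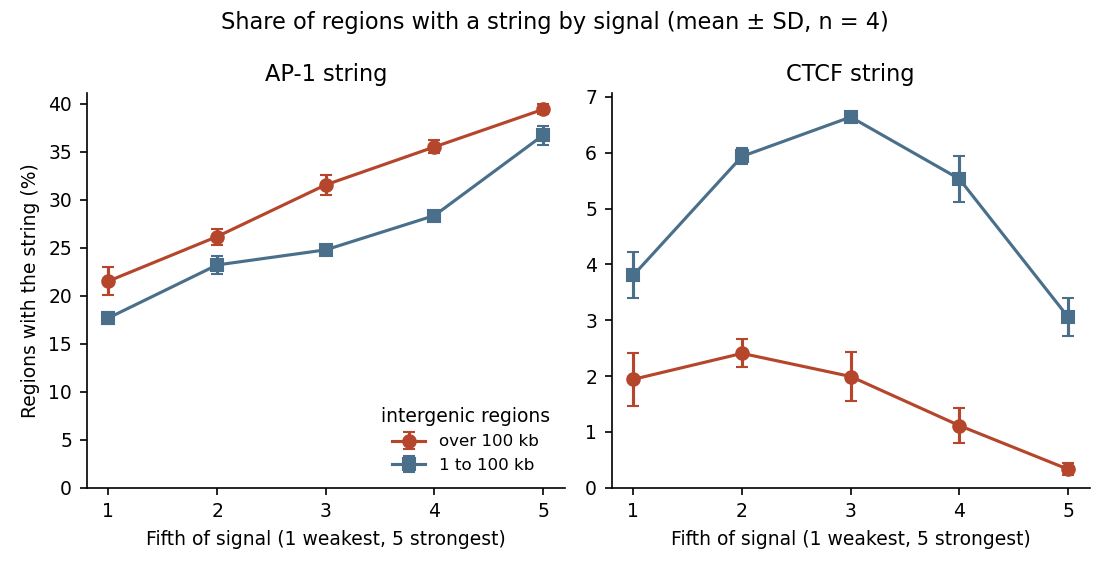
Share of regions with the AP-1 (left) and CTCF (right) string (vertical axis, percent, mean ± SD of 4 replicates) by quintile of signal among all shared regions (horizontal axis, 1 weakest to 5 strongest), for regions over 100 kb from a TSS (circles) and 1 to 100 kb from one (squares). AP-1 rises with signal to 39.4% and 36.7%, and CTCF in gene-distant regions is at 0.333% in the strongest quintile.

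Strings and signal went together within the gene-distant regions. The AP-1 share was 21.5% ± 1.45 in the weakest quintile of signal, 26.2% ± 0.841 in the second, 31.6% ± 1.06 in the third, 35.5% ± 0.674 in the fourth and 39.4% ± 0.510 in the strongest (SD, n = 4). It was above the share of nearer regions of the same quintile each time, where it was 17.7% in the weakest and 36.7% in the strongest. The CTCF share of gene-distant regions was 1.94% ± 0.471 in the weakest quintile, 2.41% ± 0.250 in the second and 0.333% ± 0.103 in the strongest. In nearer regions CTCF peaked in the third quintile at 6.64% ± 0.0958.

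In 990 gene-distant regions (22.7%) the AP-1 string lay at the summit in all 4 replicates, against 16.1% of all shared regions. Their median signal percentile was 65.3, 66.5, 65.4 and 64.6 in replicates 1 to 4, against 49.2, 49.2, 48.7 and 48.9 in the 2644 gene-distant regions with the string in no replicate. The difference of 16.4 ± 0.671 percentile points (SD, n = 4) was many times its spread. RUNX in all 4 was found in 180 regions (4.13%, against 3.23% of all shared regions) with a median percentile of 61.4 ± 1.38, and ETS in 88 (2.02%, against 1.57%) with 61.2 ± 3.53. CTCF in all 4 was found in 47 regions (1.08%, against 2.65% of all shared regions), and their median percentile was 44.8, 37.6, 41.8 and 40.1, against 53.6, 53.7, 52.5 and 52.9 in the 4276 regions without it. The composite was found in 46 regions, with a median percentile of 66.1 ± 0.683.

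AP-1 matches lay nearer to the summit than CTCF matches. Of those within 100 bp, 24.5% ± 0.668 lay within 15 bp of it in gene-distant regions and 25.002% ± 0.472 in nearer ones. Of the CTCF matches in gene-distant regions 0.316% ± 0.633 lay within 15 bp, and their median distance was 36.5 bp, against 31 bp for AP-1. No region held AP-1 and CTCF strings together in all 4 replicates, 37 held AP-1 with RUNX and 20 held AP-1 with ETS. None of these 4 strings was found in any replicate in 2148 gene-distant regions (49.3%). No such counts are given here for other regions. The joint counts were not set against those that the share of each string alone would give. They therefore do not show that strings occur together or apart more than by chance.

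**Figure D4:**
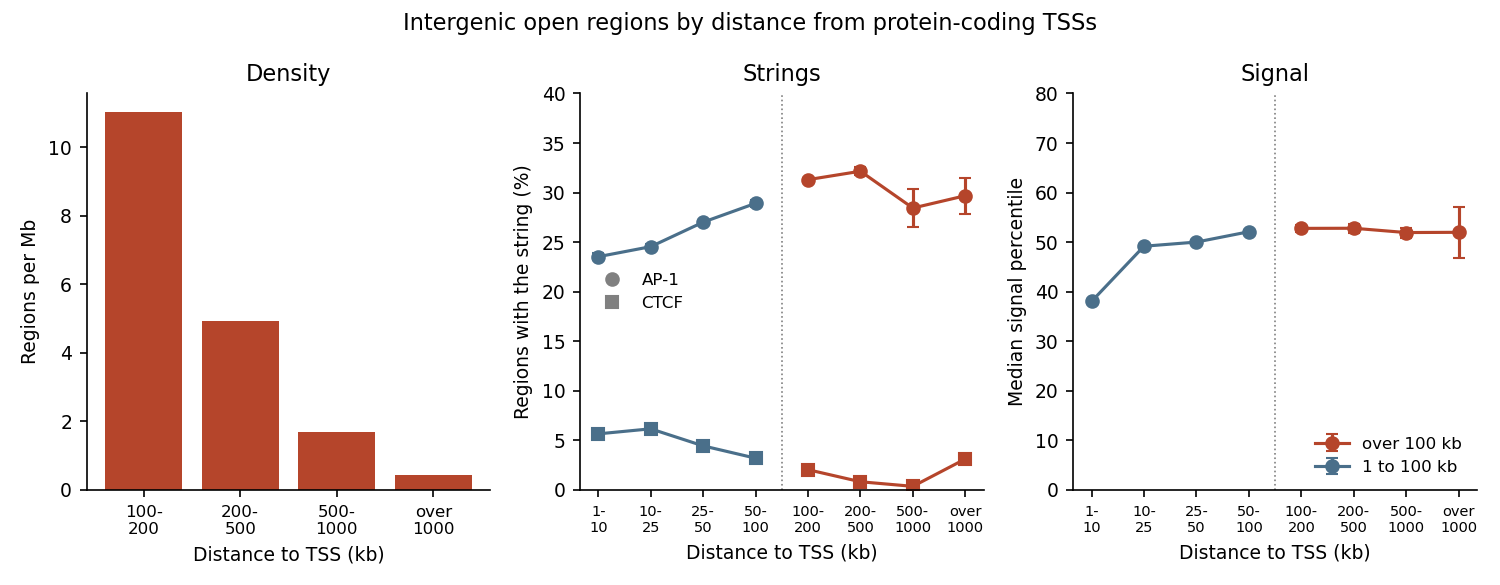
Gene-distant regions per Mb (left), share of regions with the AP-1 (circles) and CTCF (squares) string (middle, percent) and median signal percentile (right) by distance to the nearest protein-coding TSS in kb; red is over 100 kb and blue 1 to 100 kb, with means ± SD of 4 replicates in the middle and right panels. Density falls with distance. The median signal percentile goes from 38.0 at 1 to 10 kb to 52.1 at 50 to 100 kb. It averages near 52 in the gene-distant bins, with a wide spread between replicates beyond 1000 kb.

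Open regions thinned out with distance, but the signal of those present hardly moved up to 1000 kb. The median distance to a TSS was 180 kb (quartiles 132 and 279 kb) and the longest 2076 kb. There were 2533 regions at 100 to 200 kb, or 11.02 per Mb, 1516 at 200 to 500 kb (4.94 per Mb), 276 at 500 to 1000 kb (1.68 per Mb) and 32 beyond 1000 kb (0.439 per Mb). The median signal percentile was 52.8 ± 0.745, 52.8 ± 0.930, 51.9 ± 1.02 and 52.0 ± 5.14 in these 4 bins (SD, n = 4). In the last bin, of 32 regions, it differed by library tag. It was 46.7 and 48.6 in replicates 1 and 2 (KS134) and 55.3 and 57.4 in replicates 3 and 4 (KS136). The AP-1 share was 31.3% ± 0.141, 32.2% ± 0.398, 28.4% ± 1.88 and 29.7% ± 1.80.

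The CTCF share was lower at longer distance beyond 25 kb, on both sides of the 100 kb limit. It was 5.66% ± 0.0879 at 1 to 10 kb, 6.17% ± 0.173 at 10 to 25 kb, 4.45% ± 0.0559 at 25 to 50 kb and 3.20% ± 0.208 at 50 to 100 kb. In gene-distant regions it was 2.04% ± 0.118 at 100 to 200 kb, 0.825% ± 0.137 at 200 to 500 kb and 0.362% ± 0.296 at 500 to 1000 kb. Beyond 1000 kb it was 3.13%, or 1 of 32 regions. GC content fell over the same bins, with 46.3%, 44.9%, 42.5% and 40.8% in the 4 gene-distant bins.

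The 5 regions farthest from a TSS were unlike each other. The farthest, 2076 kb from Pik3c3, had a signal of 2.88, 2.43, 2.55 and 2.41. The next lay 1650 kb from Cntnap5b (4.90, 5.00, 5.74 and 4.53) and 1299 kb from Nxph1 (4.75, 7.13, 5.61 and 7.36). The fourth lay 1254 kb from Zeb2, a zinc-finger repressor used in effector T cells, and had 15.5, 14.1, 13.7 and 13.3, which stands at the percentile 90.5 ± 2.91 (SD, n = 4), with the AP-1 string at its summit in all 4 replicates. The fifth, 1248 kb from Lrfn5, had 4.90, 5.00, 4.21 and 4.53, and it too held the AP-1 string in all 4 replicates. The farthest held it in 3 replicates and the next 2 in none.

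The gene-distant regions were unevenly spread. The territory breaks into 1811 unbroken stretches, of which 750 held at least 1 region, and 101 of the richest stretches held at least 50% of all regions on 9.21% of the territory. Of 479 stretches of 500 kb or more, 257 held none. The 3 longest empty stretches lay between Tenm3 and Aga (4468 kb), Pcdh20 and Pcdh9 (4442 kb) and Olfm4 and Pcdh17 (4243 kb); Tenm3 and the protocadherins are neuronal adhesion genes. A neighbouring peak within 10 kb was found for 65.0%, 66.5%, 65.7% and 65.4% of peaks in gene-distant regions, against 80.2%, 80.4%, 80.9% and 80.7% in nearer intergenic regions (difference −14.9 ± 0.652 percentage points, SD, n = 4). Against regions at 50 to 100 kb alone the difference was −5.69 ± 0.676 percentage points, lower in 4 of 4 replicates. By chromosome, density was highest on chromosome 13 (11.9 regions per Mb of gene-distant territory) and lowest on X (1.95 per Mb), where the rest of the chromosome was also thin (12.3 per Mb).

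The 10 richest stretches held between 36 and 83 regions. The stretch between Myc and Gsdmc on chromosome 15 held 83 regions over 1621 kb, 21 of them with the AP-1 string and 0 with the CTCF string in all 4 replicates; the shares over all gene-distant regions were 22.7% and 1.08%. The stretch between Vrk1 and 3110018I06Rik held 61 over 1258 kb. The stretch between Id2 and Rnf144a held 60 over 1013 kb; Id2 encodes an inhibitor of E proteins. Cd83 and Jarid2 bordered 46 regions. The stretch between Foxo1 and Cog6 held 45 over 526 kb and was the densest of those of at least 500 kb, with 8.55 regions per 100 kb. Trib2 and Lpin1 bordered 36 regions (6.60 per 100 kb, 15 with AP-1), and Satb1, a chromatin organiser of T cells, and Kcnh8 bordered 36 (6.32 per 100 kb). The other stretches among the 10 richest lay between Nmbr and Cited2 (42), Celf2 and Gata3 (40) and Kif2a and Ndufaf2 (37). Over these 10 stretches 1 region held the CTCF string in all 4 replicates, between Celf2 and Gata3 and nearest to Celf2.

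**Figure D5:**
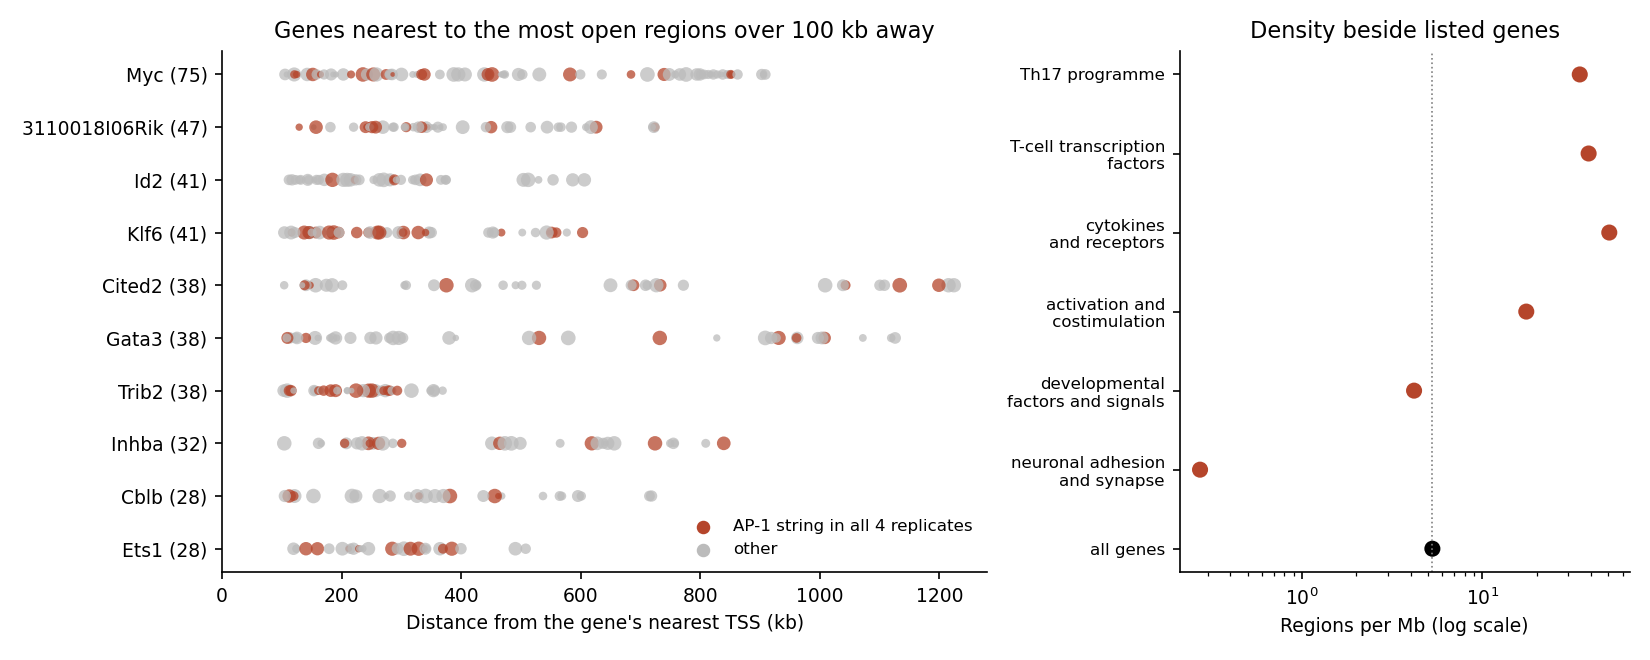
Left, distance in kb of each gene-distant region from the TSS of the 10 genes nearest to the most of them (numbers in brackets); a larger point has a higher signal percentile and red marks the AP-1 string in all 4 replicates. Right, gene-distant regions per Mb of territory (log scale) for which a listed gene has the nearest TSS; the dotted line is the value over all genes, 5.29 per Mb.

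A gene can be nearest to a gene-distant region only if it borders such territory, and 2888 of 21728 protein-coding genes do. Of these, 1031 had at least 1 region, which is 35.7% of the bordering genes and 4.75% of all protein-coding genes. Nearness does not show which gene a region acts on. Of 32 T-cell transcription factors listed, 20 bordered the territory and 19 of these had regions, 311 in all; the exception was Nfil3. That made 38.8 regions per Mb of the territory nearest to them, against 5.29 per Mb over all genes. Of 49 neuronal adhesion and synapse genes found in the annotation (1 listed name was not), 46 bordered the territory and 9 had regions, 14 in all, or 0.273 per Mb. Of 46 developmental transcription factors and signals, 39 bordered it and 12 had regions, 71 in all, or 4.19 per Mb. The cytokine and receptor list had 50.6 regions per Mb, the Th17 programme 34.7 and the activation and costimulation list 17.5. The T-cell factors had 8.01 Mb of territory and the neuronal genes 51.4 Mb. The cytokine and receptor list had only 0.356 Mb and 18 regions, 15 of them nearest to Tgfbr2. The Th17 programme had 1.009 Mb and 35 regions, all nearest to 2 genes, and the activation and costimulation list had 2.168 Mb. Density falls with distance from a TSS, and these densities were not matched for distance. The lists were chosen with results of these data known, so the counts describe the lists and carry no test.

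Among the T-cell factors, Myc was nearest to 75 regions, Id2 to 41, Gata3 to 38, Ets1 to 28, Satb1 to 23, Tox to 19, Foxo1 to 18 and Runx1 to 16. Myc regions lay between 105 and 909 kb from its TSS and Gata3 regions between 108 and 1126 kb, with median signal percentiles of 44.2 and 63.9. The Gata3 regions thus stood above the median of all gene-distant regions and the Myc regions below it. The AP-1 string was present in all 4 replicates in 18 of the 75 Myc regions, 5 of the 41 of Id2, 7 of the 38 of Gata3, 10 of the 28 of Ets1, 2 of the 23 of Satb1 and 2 of the 19 of Tox, against 22.7% of all gene-distant regions. Klf6, which is not on the list, had 20 among its 41. Zeb2 had 5 regions in 1749 kb of territory, and Bach2 had 1 region in 23 kb, at the percentile 96.1.

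Few of the Th17 genes could be nearest to a gene-distant region, as is true of protein-coding genes in general, of which 13.3% border the territory. Of 14 genes of the Th17 programme 3 did: Maf, a regulator of Il10 and other Th17 genes, was nearest to 20 regions, Ahr to 15 and Rora to 0. Of 27 cytokine and receptor genes, 3 did: Tgfbr2, a receptor for the TGF-beta that drives Th17 differentiation, was nearest to 15 regions, Ifng to 3 and Ifngr1 to 0. Of 24 activation and costimulation genes 7 did and 5 had regions; Cxcr4 had 12, Icos and Nr4a3 10 each, Pdcd1 4 and S1pr1 2. None of the 10 T-cell identity genes bordered it. Outside the lists, the 10 genes nearest to the most regions included 3110018I06Rik (47), Cited2 (38), Trib2 (38), Inhba (32), a subunit of activin, and Cblb (28), a ubiquitin ligase that restrains T-cell activation.

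Among the developmental genes with regions, Sox4, which T cells also use, had 20, Sox9 12, Sox6 9 and Tshz1 and Lmo4 8 each. Nr2f1 and Nr2f2 had 0, each with more than 1000 kb of territory. Among the neuronal genes Cntn5 had 6 regions and no other had more than 1. Of the marker genes of other cell types, 2 of 8 B-cell genes bordered the territory with 0 regions, and no myeloid, hepatocyte or muscle gene bordered it.

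Many gene-distant regions lay in noncoding transcription units. Of all 4357, 1132 (26.0%) overlapped an annotated noncoding gene, against 17.3% of nearer intergenic regions, and 894 of them overlapped a long intergenic noncoding RNA gene. There were 316 regions (7.25%) within 1 kb of a noncoding TSS, with a median signal percentile of 50.3 ± 0.487, against 53.0 ± 0.784 in the other 4041 (SD, n = 4). When gene bodies and TSSs of all annotated gene types were used in the rule, 482 regions remained. Antigen receptor segments accounted for few of the overlaps: 13 regions with immunoglobulin and 7 with T-cell receptor variable segments.

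Repeats made up a smaller part of gene-distant summits. Soft-masked repeat bases made up 11.04% ± 0.0395 of the summit windows, against 13.0% ± 0.0372 in nearer intergenic regions (SD, n = 4). Summits whose 31-base words occur more than once made up 0.694% ± 0.0866 of gene-distant regions and 0.558% ± 0.0287 of nearer ones. With every region left out whose summit was multi-copy or mostly masked in any replicate, 4137 gene-distant regions remained, and the AP-1 and CTCF differences were 6.11 ± 0.338 and −3.85 ± 0.123 percentage points.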

How the data were processed

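ATAC-seq peaks of 4 Th17 replicates were analysed, as deposited by the authors in the narrowPeak layout on mm10, derived from alignments per the file headers. Each deposited peak carries a score, a signal value, a −log10 p-value and a −log10 q-value and a summit offset; the score and p-value were not used. No source used here names the aligner or the peak caller, and none gives read depth, so the depth behind a peak is unknown and no counting interval is given; each list holds 83886 to 85272 peaks on the 20 chromosomes used, with a smallest −log10 q near 1.

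Peaks were merged at 1 bp of overlap and classed with GENCODE M21 (all transcript starts of protein-coding genes). In each region the strongest peak of each replicate gave signal, width and summit. Sequence came from RefSeq GRCm38.p6. The 18 strings were searched on both strands; GC content and masking used 100 bp on either side of the summit. Densities use non-N bases; the densities beside listed genes use steps of 1 kb. Each replicate gave a value, and differences over the 4 replicates were tested with an exact two-sided sign-flip permutation test. All 4 lists matched their samples by the file records. The functions were tested on simulated data. Named are the 10 strongest and 3 weakest regions, the 5 farthest, the 10 richest, 3 densest and 3 longest empty stretches, the 10 genes nearest to most regions, the 3 leading genes of each list and the regions next to the limit; further list genes were named after their values were seen. The members and lists were chosen with earlier results of these data known. Alternatives covered the q threshold, summit agreement, distance, gene types, TSSs, replicates, comparator, tag, motif window, repeats and GC content. Python 3.11, numpy, pandas and matplotlib were used.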

Additional observations from a re-analysis of the deposited data

Results flagged for a closer look

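Over 28 sets of replicate values examined, 2 had a replicate far from the other 3; such a gap arises by chance in about 1 in 20 sets. The share of peaks with a neighbour within 10 kb, gene-distant minus nearer intergenic, was −13.9 percentage points in replicate 2, against −15.2, −15.2 and −15.3 in replicates 1, 3 and 4. The HNF4 share at gene-distant summits was 0.0459% (2 regions) in replicate 2, against 0.0918% (4 regions) in each of the other 3. Whether either gap has a cause was not tested.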

How the results depend on the processing

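Of 155 values under alternatives, 148 kept the direction of the main value, or a count within 1.5 times it. The number of gene-distant regions was 1824 with a limit of 200 kb and 482 with all gene types, against 4357; fewer bases meet those rules. The difference in the share of peaks present in all 4 lists, 0.448 percentage points, reversed to −1.12 (peaks at −log10 q of 10 or more), −0.100 over 200 kb, −0.364 with all gene types and −0.252 with tag KS134 only; the cause was not tested. The RUNX difference of 1.08 reversed to −0.0283 against regions at 50 to 100 kb only. Leaving out each replicate gave 4489 to 4558 regions, signal differences of 5.62 to 6.10 percentile points, AP-1 differences of 5.46 to 5.94 and CTCF differences of −3.51 to −3.40 percentage points. Over all alternatives the AP-1 difference lay between 2.49 and 8.23, the CTCF difference between −4.16 and −0.447 (25 bp window) and the signal difference between 0.610 and 9.41. The repeat, GC and 50 to 100 kb alternatives were chosen after the data were seen. The density ratio uses all peaks, so summit agreement gives no separate value for it. No paired analysis was possible because there is 1 group, so replicate numbers pair no samples between groups; differences between classes of regions are taken within each replicate. Peak lists give no depth, so a missing peak may be a site below the calling threshold.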
